A study of Mus musculus with 4 samples.

Results

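Plasma cells were chosen from single-cell RNA sequencing libraries of mouse small intestinal adenomas by a fixed rule on unique molecular identifiers (UMIs, each standing for 1 captured transcript). A barcode counted as a plasma cell when it held at least 5 UMIs of Jchain and 1 of Mzb1, at least 3 of Jchain, Mzb1, Derl3, Ccr10 and Xbp1 were detected, Ms4a1 was at 0, and Epcam, Krt8 and Krt19 together took less than 0.2% of its UMIs. The rule found 438 plasma cells among 12349 barcodes that had at least 1000 UMIs, at least 200 genes and at most 20% mitochondrial UMIs. Because these genes chose the cells, their levels are given as a description without a test, and every comparison of plasma cells with other cells below is a description too.

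Plasma cells are the antibody-secreting end stage of the B cell lineage. In the intestine they lie in the lamina propria and mostly make immunoglobulin A (IgA), whose units are joined by the J chain (Jchain) and carried across the epithelium by the receptor Pigr. They keep a large endoplasmic reticulum (ER), in which chains are folded, glycosylated and proofread. The unfolded protein response, with Xbp1 as a main transcription factor, sets the capacity of that compartment.

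The tissue came from C57BL/6 mice of 11 weeks that carry the Min mutation of the tumor suppressor gene Apc. ApcMin mice (ApcMin/+;Lef1 +/+) have intact Lef1, a transcription factor of the Wnt pathway, whereas VApcMinL mice (ApcMin/+;Lef1 fl/fl; Villin-Cre) have floxed Lef1 and a Cre driven by the Villin promoter, which acts in the intestinal epithelium and not in plasma cells. Each group had 2 libraries of 3 to 10 pooled, unsorted tumors, replicate 1 made with version 2 (kit 2) and replicate 2 with version 3 (kit 3) of the 10x Genomics 3′ kit. The comparison addressed here is whether the plasma cells of adenomas that differ in epithelial Lef1 differ in number or in expression. In a bulk sum over cells, fewer cells of a kind and less RNA per cell cannot be told apart, so levels are given relative to all UMIs of the plasma cells.

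The libraries are called by their labels, and the labels were not borne out in every respect. Runs of values below follow the order ApcMin replicate 1, VApcMinL replicate 1, ApcMin replicate 2, VApcMinL replicate 2, and CPM stands for UMIs scaled to a common total over the 27514 genes that both kits list. The libraries held 44660305, 49009488, 98714025 and 128247396 UMIs, and 2797, 2959, 2145 and 4448 barcodes were kept. The mitochondrial limit had removed 24.7%, 23.4%, 62.0% and 29.9% of barcodes with 1000 UMIs. Lef1 in epithelial barcodes went against the labels, at 4.81, 10.2, 9.23 and 15.2 CPM, so within each kit the library labelled VApcMinL had the higher value (3′ counts can also record a transcript that lacks deleted exons). All samples are labelled male, yet Xist, the RNA of the inactive X chromosome of female cells, was present in 1 of 301, 77 of 79, 0 of 25 and 7 of 33 plasma cells. At least 1 of the Y-linked genes Ddx3y, Eif2s3y, Kdm5d and Uty was present in 125, 0, 16 and 12 of them. In the library labelled VApcMinL replicate 2, plasma cells with Xist and plasma cells with a Y-linked gene shared 1 cell, and 15 held neither. Sex and genotype label therefore cannot be told apart in kit 2. The kit 2 libraries shared 18 barcode sequences, 1 more was shared by ApcMin replicate 1 and VApcMinL replicate 2, and none of these was a plasma cell in both.

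The genes of the rule were at these levels. Jchain took a median of 22.9%, 19.9%, 18.1% and 17.6% of a plasma cell's UMIs over the shared genes, and a median plasma cell held 1166, 1201, 1473 and 847 Jchain UMIs. The summed level of Mzb1, a helper of antibody secretion in the ER, was 3719, 3993, 4393 and 4704 CPM, and that of Xbp1 was 2405, 2968, 2862 and 2597 CPM. Derl3, which acts in the removal of misfolded proteins, was at 537, 563, 437 and 479 CPM. All 5 genes were detected in 203, 67, 21 and 22 plasma cells, and the smallest number that the rule allows, 3, in 25, 2, 1 and 1.

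Jchain was also spread outside plasma cells, most of all in ApcMin replicate 1. At least 5 Jchain UMIs were found in 63.1% of its kept barcodes, against 9.09%, 1.26% and 0.832% in the others. In barcodes of at most 100 UMIs, which hold mostly free RNA, Jchain took 0.723%, 0.195%, 0.0337% and 0.0227% of UMIs, and an epithelial barcode held a median of 8, 1, 0 and 0. The epithelial limit decided more candidates than any other condition, since 256, 19, 0 and 2 barcodes met everything else. Just inside it, between 0.15% and 0.2%, lay 50, 19, 0 and 0 members, and just outside, between 0.2% and 0.25%, lay 34, 6, 0 and 1 barcodes. Of the other conditions, too few Jchain UMIs alone kept out 21, 8, 1 and 0 barcodes, and Ms4a1 alone 3, all in ApcMin replicate 1.

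The name plasma cell was checked against genes that the rule did not use. Tnfrsf17, the receptor BCMA for plasma cell survival signals, was present in 80.7%, 89.9%, 84.0% and 81.8% of plasma cells and in 2.39%, 0%, 0% and 0% of T cells (barcodes with Cd3 genes). Cd79a, a signalling part of the B cell receptor, was present in 93.0%, 100%, 100% and 100% of plasma cells and in 2.39%, 0.376%, 0% and 0% of T cells. Plasma cells were deeper than T cells, with medians of 5408, 5868, 20330 and 13588 UMIs against 2024, 2141, 2838 and 2065. Cd79a thus marked every member in the 3 libraries other than ApcMin replicate 1, where a subset stood apart.

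That subset had few Jchain UMIs. In ApcMin replicate 1, 19 of 301 members held fewer than 100 Jchain UMIs and 10 of them fewer than 10, while the lowest member of the other libraries held 145, 353 and 207. Only 3 of the 19 had Tnfrsf17 and 5 had Cd79a, against 240 and 275 of the 282 members with at least 100 Jchain UMIs. Fabp1, a fatty acid binding protein of enterocytes, was present in 14 of the 19 and in 254 of the 282. Tnfrsf17 and Cd79a were thus missing from most of these 19 barcodes, and results that rest on this library are also given for members with at least 100 Jchain UMIs.

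ApcMin replicate 1 also held 3 members with genes of other cells at high levels. In 2 of them, with 61553 and 91771 UMIs, Paneth cell markers took 37.7% and 45.5% of UMIs, and these barcodes held 97.1% of all Paneth-marker UMIs of that library's plasma cells. In 1 member hemoglobin genes took 86.7% of UMIs and made up 64.3% of that list in the library. The highest value in any other member of the library was 0.384% for Paneth cell markers and 1.28% for hemoglobin genes. No member of the other 3 libraries passed 5% for either list.

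Markers of the remaining cell types were low. The 12 epithelial markers summed to 0.280%, 0.388%, 0.120% and 0.0992% of plasma cell UMIs, against 1.32%, 2.23%, 3.88% and 1.39% in epithelial barcodes. That list does not hold Epcam, Krt8 or Krt19, which the rule limited. The limit still chose against epithelial barcodes, so the low sum is not independent of the choice of cells. The 7 T cell markers that both kits list summed to 0.0181%, 0.0109%, 0.00245% and 0.00279%, against 1.87% to 3.00% in T cells, and 0, 0, 4 and 5 of them were at 0. Myeloid markers summed to between 0.00694% and 0.0203%, and mast cell, fibroblast and endothelial markers to at most 0.0197%. Leaving out barcodes with T cell, myeloid, mast cell, fibroblast or endothelial markers (genes of other cells) was an alternative of the group comparisons below. The part of these markers in the comparisons of plasma cells with other cells was not tested.

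Plasma cells made up 10.8% (exact 95% interval 9.64 to 12), 2.67% (2.12 to 3.32), 1.17% (0.756 to 1.72) and 0.742% (0.511 to 1.04) of kept barcodes. The intervals are Clopper-Pearson intervals and cover counting error only. The interval of ApcMin replicate 1 lay above those of the other 3 libraries. ApcMin libraries averaged 5.96% ± 6.79 (SD, n = 2) and those of VApcMinL 1.71% ± 1.36 (SD, n = 2), which makes a difference of -4.26 percentage points (two-sided exact permutation test, p = 0.667). With 2 libraries against 2 this test cannot go below 0.33, and a p over libraries measures only the spread between these samples. The groups overlapped, since VApcMinL replicate 1 lay above ApcMin replicate 2. The kit 2 pair differed by -8.09 points and the kit 3 pair by -0.424. In the kit 3 pair the mitochondrial limit had removed unlike parts of the barcodes, 62.0% in ApcMin replicate 2 and 29.9% in VApcMinL replicate 2. Shares without this limit were not computed. Without ApcMin replicate 1 the sign of the group difference turned, at 0.54 points, while members with at least 100 Jchain UMIs gave a share of 10.1% in that library and a group difference of -3.92 points.

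**Figure D1:**
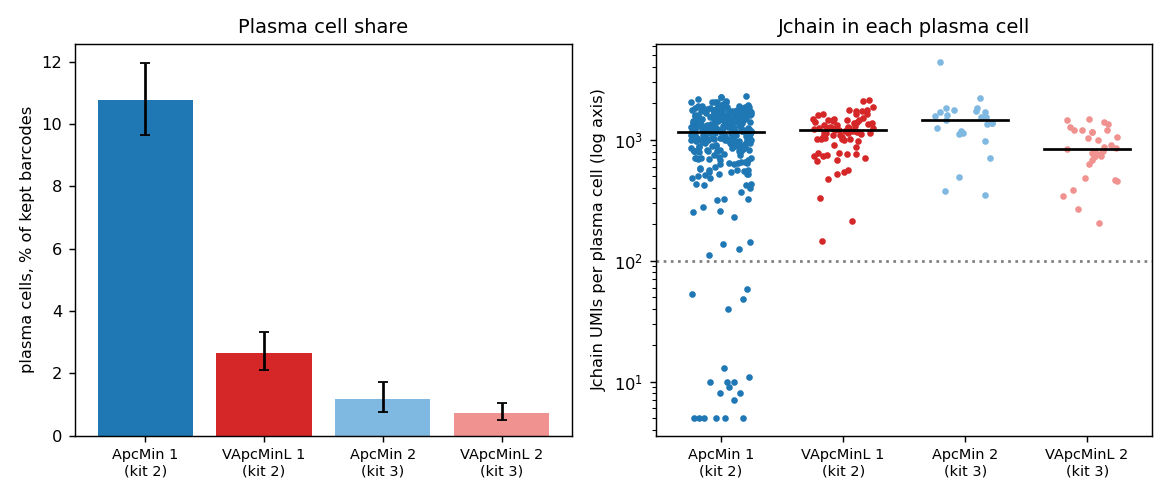
Plasma cells by library. The bars give the share of kept barcodes (percent) with exact 95% intervals, and the points give Jchain UMIs per plasma cell on a log axis, with a black line at the median and a dotted line at 100 UMIs. ApcMin replicate 1 has the highest share, 10.8%, and is the library with members below the dotted line.

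The heavy chain could be read in kit 3 alone, because the kit 2 gene tables list no immunoglobulin genes. Igha (chr12:113254830-113260236, minus strand, GRCm38), the constant region of IgA, made up 97.1% of heavy chain constant UMIs in the plasma cells of ApcMin replicate 2 and 97.2% in those of VApcMinL replicate 2. A cell was assigned to a class that had at least 10 UMIs and at least 80% of its heavy chain constant UMIs. By this rule 24 of 25 plasma cells of ApcMin replicate 2 (96.0%, exact 95% interval 79.6 to 99.9) and 32 of 33 of VApcMinL replicate 2 (97.0%, 84.2 to 99.9) made IgA. With 1 library a group there is no test, and the difference of 0.97 points has no replicate check. Each interval contains the share of the other library.

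Of the other classes, Ighg1 (IgG1) was present in 1 plasma cell of each library and no other class led in any cell. In ApcMin replicate 2 this cell held 1860 Ighg1 and 161 Igha UMIs, the lowest Igha count of any plasma cell. In VApcMinL replicate 2 it held 2021 Igha and 1475 Ighg1 UMIs and stayed unassigned. That cell was also the deepest of its library, with 26109 UMIs and 3353 genes, and 2 kappa V genes tied in it at 15 UMIs each. Ighm, of the IgM class that B cells make before switching, summed to 65 UMIs in ApcMin replicate 2, at most 22 in a cell, and to 0 in VApcMinL replicate 2. T cells, which make no antibody, had an Ighm UMI in 32.9% and 23.7% of cells, at most 6. Ighg2b summed to 85 and 37 UMIs, Ighg3 to 59 and 0 and Ighg2c to 6 and 0. Ighd and Ighe, of IgD and IgE, were at 0 in all 58 plasma cells of kit 3.

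The light chain was kappa in nearly every plasma cell of kit 3. Igkc (chr6:70726435-70726966, plus strand), the kappa constant region, led in 25 of 25 and 32 of 33 cells. The other cell of VApcMinL replicate 2 was lambda, with 3381 Iglc1 and 14 Igkc UMIs, a share of 3.03% (exact 95% interval 0.0767 to 15.8). None of 25 was lambda in ApcMin replicate 2, with an upper exact limit of 13.7%. A median cell held 9204 and 6922 Igkc UMIs and 2803 and 1742 Igha UMIs. Igha ranged from 161 to 7831 and from 465 to 3259 between cells, a spread wider than the gap between the medians. The median ratio of Igkc to Igha was 3.61 and 4.38, and that of Igha to Jchain 2.0 and 1.80.

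Low counts of lambda genes accompanied kappa. Cells called kappa held between 35 and 451 UMIs of Iglc1 to Iglc4 (median 81) in ApcMin replicate 2 and between 10 and 99 (median 44) in VApcMinL replicate 2. Iglc4 itself had 1 and 2 UMIs in all, whereas Iglc2 summed to 1700 and 866 and Iglc3 to 312 and 138. The lambda constant genes are near copies of each other, so counts can be split between them.

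Immunoglobulin genes of all kinds took a median of 61.8% of a plasma cell's UMIs in ApcMin replicate 2 (range 11.3 to 76.3) and 65.6% in VApcMinL replicate 2 (range 19.1 to 79.2). In T cells the median was 0.0489% and 0.0504%, and in barcodes of at most 100 UMIs the summed share was 0.344% and 0.246%. Antibody transcripts thus made up most UMIs of the median plasma cell. An Igha UMI was found in 34.3% and 31.7% of T cells, at most 4 in a cell, and an Igkc UMI in 54.3% and 40.2%.

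**Figure D2:**
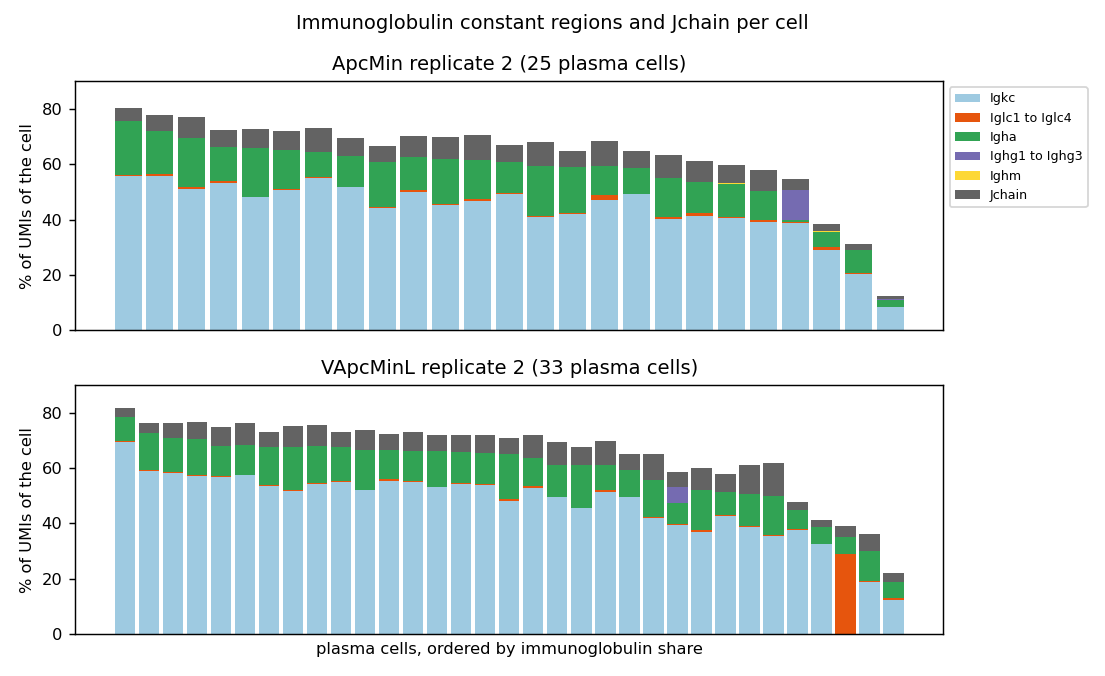
Antibody chains in each plasma cell of the kit 3 libraries. Each column is a cell and each colour the percent of its UMIs in kappa (Igkc), lambda (Iglc1 to Iglc4), IgA (Igha), IgG (Ighg1 to Ighg3 genes), IgM (Ighm) or J chain transcripts. Kappa and IgA fill nearly all columns, with 1 lambda cell and 2 cells with IgG.

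The plasma cells of kit 3 used many V genes, the segments that encode the antigen-binding end of each chain. A heavy V gene could be assigned (at least 3 UMIs and at least 2 times the next) in 24 and 28 cells and a kappa V gene in 25 and 30. In each library the assigned cells used 20 distinct heavy V genes, and they used 17 and 18 distinct kappa V genes. The most used heavy V gene was Ighv4-1 in ApcMin replicate 2, in 3 cells, and Ighv1-53 in VApcMinL replicate 2, in 4. Igkv1-110 was used by 3 and 7 cells. Of 24 and 25 cells with both chains, 21 and 22 pairs were distinct. The pairs found in more than 1 cell were Ighv4-1 with Igkv10-96 in 3 cells and Ighv1-80 with Igkv1-117 in 2 of ApcMin replicate 2, and Ighv1-53 with Igkv1-110 in 3 and Ighv1-39 with Igkv6-23 in 2 of VApcMinL replicate 2. No pair occurred in both libraries. The counts name V genes and not full rearrangements, so cells with the same pair are not shown to be of 1 clone.

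Among genes that both kits list and that the rule did not use, the 20 with the highest lowest ratio of plasma cells to all other kept barcodes were read as leading genes. In all of them plasma cells exceeded the other barcodes by at least 4.42 on the log2 scale of CPM + 5 in every library. Over all 8416 genes at 5 CPM or more, 2.13% were 4-fold higher in plasma cells in all 4 libraries, and 1.40% were so over T cells. Several of the 20 belong to the B cell lineage. Cd79a (chr7:24897381-24902197, plus strand) was at 1031, 1284, 1066 and 1421 CPM and its partner Cd79b at 275, 347, 396 and 351. Vpreb3, a chaperone-like partner of antibody chains, was at 461, 519, 498 and 736 CPM. Pou2af1, a coactivator of antibody genes, was at 319, 425, 412 and 329 CPM, and its relative spread over the libraries was small.

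Receptors for survival signals formed another set among the leading genes. Tnfrsf17 (chr16:11313812-11320074, plus strand) was at 387, 498, 372 and 529 CPM against 10.1, 0, 0 and 0 in T cells. Tnfrsf13b (TACI), which binds the same ligands, was at 207, 201, 261 and 256 CPM, and Slamf7, a surface receptor of plasma cells, at 172, 241, 286 and 357. Of their ligands, Tnfsf13 (APRIL) was at 0 in the plasma cells of all 4 libraries and Tnfsf13b (BAFF) had at most 0.534 CPM. The receptors were thus present in these cells, and the ligands were at or near 0.

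Gm30211, the leading gene after Cd79a, lies on chr6:70719074-70740554 on the plus strand and contains Igkc on the same strand. It was at 380, 402, 539 and 463 CPM, so counts of the kappa locus and of this noncoding RNA are uncertain, as reads can be split between them. Trp53inp1, a stress response gene, was at 679, 558, 1066 and 1070 CPM, Glipr1 at 823, 837, 743 and 535, Eaf2, a partner of elongation factors such as Ell2, at 251, 297, 404 and 362, and Cacna1s, a calcium channel subunit, at 243, 366, 188 and 212. Fam46c, which stabilises transcripts of secreted proteins, was at 316, 314, 539 and 613 CPM and St6gal1, which adds sialic acid to antibodies, at 178, 138, 220 and 167. Cd69, an activation and tissue residency gene, was at 497, 383, 355 and 279 CPM against 476, 187, 487 and 432 in T cells, which were higher in both kit 3 libraries. Lax1, an adaptor of lymphocyte signalling, was at 130 to 184 CPM and the noncoding Gm5547 at 178 to 274.

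The remaining 3 of the 20 spread by more than 3-fold between libraries. Ly6c2, a surface protein of plasma cells and monocytes, was at 316, 2137, 1853 and 613 CPM. Slpi, a secreted protease inhibitor, was at 1431, 5020, 2066 and 1561 CPM, and Prg2, a granule protein, at 159, 573, 469 and 295. For all 3 genes the groups overlapped, and the library with the highest value was VApcMinL replicate 1.

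**Figure D3:**
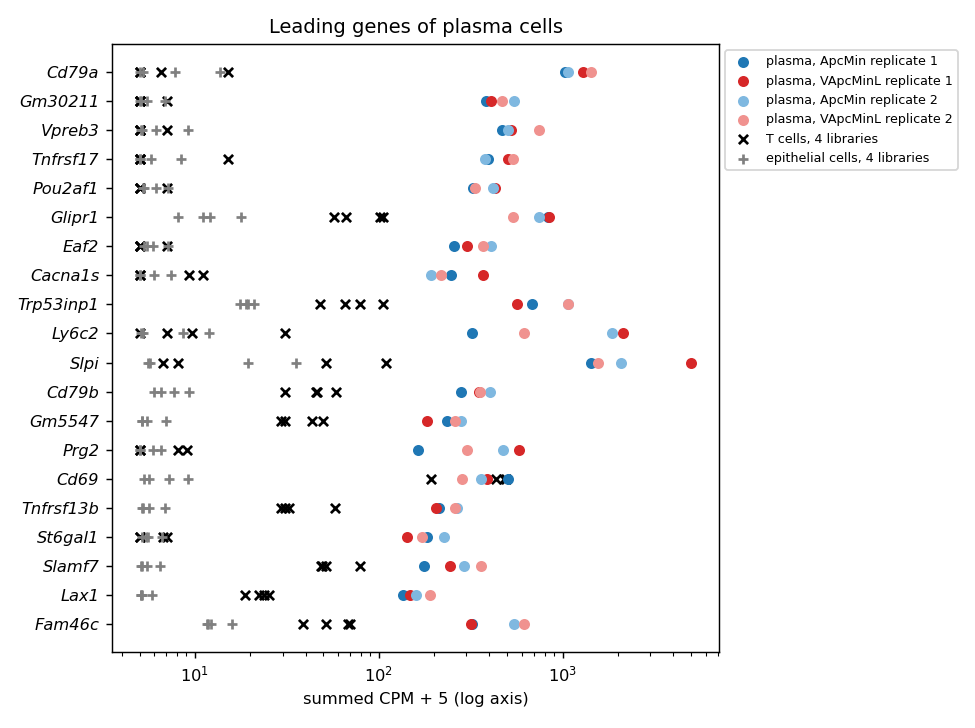
The 20 leading genes of plasma cells. The axis gives CPM + 5 on a log scale, the coloured points the plasma cells of each library, the crosses T cells and the plus signs epithelial barcodes. Plasma cells lie above the epithelial barcodes for each gene, while Cd69 is higher in T cells in both kit 3 libraries, and Ly6c2, Prg2 and Slpi spread by more than 3-fold between libraries.

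The transcription factors of plasma cells were measured beside those of B cells. Xbp1, a gene of the rule, led, and Pou2af1 followed. Irf4, which drives and maintains the plasma cell state, was at 82.8, 102, 151 and 123 CPM against 6.12 to 17.4 in T cells. Prdm1 (Blimp-1), the repressor that ends the B cell program, was at 73.7, 94.1, 102 and 184 CPM against 38.4, 23, 117 and 53.1 in T cells, so in ApcMin replicate 2 T cells were not below plasma cells. Ell2, an elongation factor that favours the secreted form of the heavy chain, was at 178, 186, 310 and 234 CPM. Leaving out Xbp1, which the rule used, all 5 other genes of the list exceeded the other barcodes in all 4 libraries, where 16.8% of the 8416 genes did.

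Most transcription factors of B cells were low, while their surface genes were mixed. Pax5, the factor that keeps B cells B cells, was at 0 in all 438 cells, and Ciita, Spib, Bcl11a and Bcl6 had at most 5.57 CPM in any library. Ebf1 was the highest of the list, at 28.3, 16.7, 49.0 and 50.2 CPM. Of the 3 factors at 5 CPM or more, 2 exceeded the other barcodes in all 4 libraries, where 16.8% of the 8416 genes did. None of them did so 4-fold, and 1 lay below the other barcodes in all 4. Against T cells 1 was 4-fold higher in all 4 libraries and 1 was lower in all 4. On the surface, Cr2 and Fcer2a were at 0 in all 4 libraries, and Cd22 had at most 0.534 CPM, while Ms4a1 was 0 by the rule. Of the 9 surface genes at 5 CPM or more, however, 7 exceeded the other barcodes in all 4 libraries, 4 of them 4-fold, Cd79a and Cd79b among these, and none lay below them in all 4. Genes of antigen presentation were present. Cd74, the invariant chain of MHC class II, was at 4425, 10288, 5181 and 4386 CPM, H2-Ab1 at 530, 418, 343 and 245 and H2-Eb1 at 259, 169, 220 and 145. No B cell sums are compared, because only 10 barcodes met the B cell definition.

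Homing genes included some that were as high in T cells. Ccr10, a gene of the rule and the receptor for the epithelial chemokine Ccl28, was at 484, 686, 559 and 736 CPM. Ccr9, the receptor for the small intestinal chemokine Ccl25, was at 75.3, 58.6, 114 and 229 CPM, below T cells in each library at 248, 237, 365 and 248. Thinned to 1000 UMIs per cell, Ccr9 was present in 8.31%, 6.33%, 4.00% and 9.09% of plasma cells. In thinned T cells the shares were 18.7%, 21.8%, 30.0% and 18.8%. Thinning drew from all genes. Antibody genes, listed in kit 3 alone, took a median of 61.8% and 65.6% of plasma cell UMIs there. Thinned plasma cells of kit 3 thus held fewer other UMIs than thinned T cells, which can lower their Ccr9 shares. The size of this effect was not tested. Without thinning, Ccr9 was present in 34.6%, 27.8%, 56.0% and 72.7% of plasma cells against 33%, 35%, 51.4% and 33.5% of T cells. The subunits of the gut-homing integrin, Itga4 and Itgb7, were at 80.1 to 233 and 79.5 to 122 CPM in plasma cells and at 87.3 to 226 and 170 to 234 in T cells. Cd44 was at 139 to 180 CPM. Cxcr3, Ccr6 and Ccr7 had at most 4.27 CPM, and Cxcr4, which binds the niche chemokine Cxcl12, at most 16.3.

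Further survival genes included Sdc1 (CD138), a heparan sulfate carrier that defines plasma cells in flow cytometry, at 440, 487, 388 and 351 CPM against 13.8 to 26.1 in T cells. Mcl1, a protein on which plasma cell survival depends, was at 207, 245, 498 and 351 CPM. Bcl2, its relative, was lower in plasma cells than in T cells in all 4 libraries, at 54.5, 56.5, 40.8 and 78.0 against 483 to 742 CPM. Cd28, a costimulatory receptor, was at 97.7 to 150 CPM in plasma cells. In all, 11 of the 14 genes of this list at 5 CPM or more exceeded the other barcodes in 4 libraries, and 2 were below them in all 4.

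Genes of the ER were mostly higher in plasma cells than in other cells. Of 22 chaperones and folding enzymes, 18 were higher in plasma cells than in the other barcodes in all 4 libraries and 11 were 4-fold higher. Against T cells 20 of 22 were higher in all 4 libraries, where 13.0% of the 8416 genes were, and 11 were 4-fold higher. Hsp90b1 (Grp94), a chaperone of antibody chains, was at 1805, 2455, 4887 and 4832 CPM against 176 to 374 in T cells. Hspa5 (BiP), which holds unpaired heavy chains, was at 841, 1242, 1200 and 2012 CPM against 351 to 491. Txndc5, a disulfide isomerase, was at 2102, 3058, 3425 and 3105 CPM against 21.7 to 42.8, the widest gap of the list. Manf was at 1194, 1443, 1180 and 1594 CPM. Pdia3, P4hb, Canx and Ero1l did not exceed the other barcodes in all 4 libraries, and Pdia3 lay at 245 to 362 CPM against 197 to 283 in T cells.

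The machinery of entry into the ER and of processing was next. Among 17 genes of the translocon and the signal peptidase, 16 exceeded the other barcodes in all 4 libraries and 6 did so 4-fold. Ssr4, part of the translocon-associated complex, was at 3210, 3491, 4777 and 5613 CPM and Sec11c, a catalytic subunit of the signal peptidase, at 2394, 2836, 4042 and 4465. Its relative Sec11a lay below the other barcodes in all 4 libraries, at 75.3 to 128 CPM. All 9 subunits of the oligosaccharyltransferase, which attaches N-glycans, exceeded both the other barcodes and T cells in 4 libraries. Only Krtcap2 was 4-fold over the other barcodes in all 4, at 1170, 1251, 1776 and 1678 CPM, and 0 were 4-fold over T cells in all 4. In ER to Golgi transport 6 of 12 genes exceeded the other barcodes and 11 of 12 exceeded T cells, led by the cargo receptors Tmed10, at 733 to 1076 CPM, and Lman1, at 419 to 943.

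Genes that degrade misfolded proteins were also mostly higher. Leaving out Derl3, a gene of the rule, 8 of 9 such genes were higher than in the other barcodes in all 4 libraries and 5 were 4-fold higher. Edem1, which tags misfolded glycoproteins, was at 1077, 1573, 980 and 1143 CPM against 59.7 to 74.7 in T cells, and Edem2 at 793, 1031, 935 and 1031 against 8.70 to 42.9. Herpud1, a part of the retrotranslocation complex, was at 532, 814, 498 and 752 CPM. The regulators of the unfolded protein response were less far apart, with 6 of 7 higher than in the other barcodes in 4 libraries and none 4-fold. Atf6 was at 51.8, 43.9, 93.9 and 134 CPM, Eif2ak3 (PERK) at 26.2, 43.9, 40.8 and 44.6 and Ern1 (IRE1) at 15.0, 16.7, 28.6 and 55.7. Ddit3 (CHOP), the death-linked arm, was at 25.1, 20.9, 28.6 and 50.2 CPM against 41.3 to 69.6 in T cells, and Trib3 was at 0 in all 4 libraries.

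**Figure D4:**
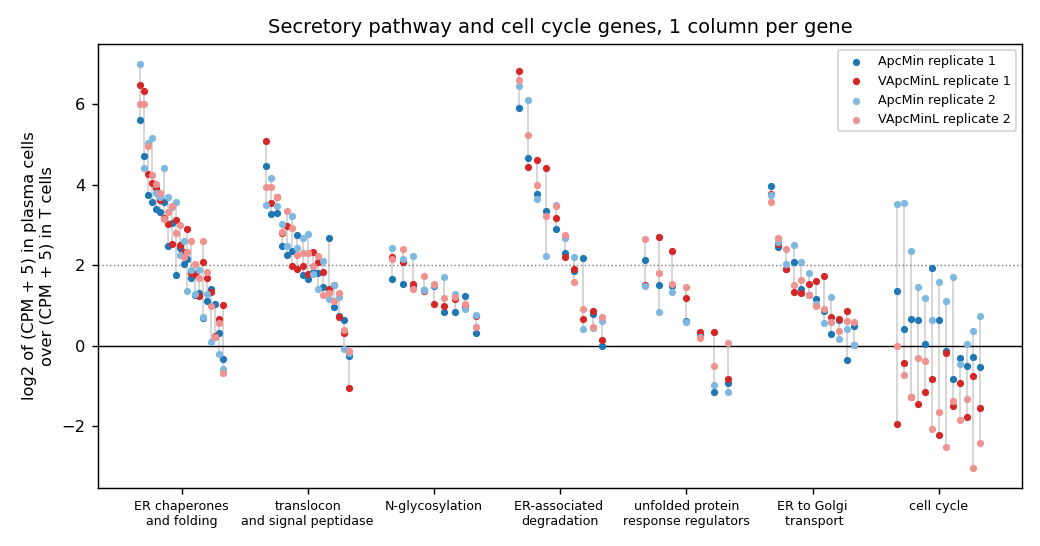
Secretory pathway genes in plasma cells over T cells. Each column is a gene of 1 of 7 lists, the points its log2 ratio of CPM + 5 in each library, and the dotted line marks a log2 ratio of 2 (4-fold). Folding, entry and degradation genes lie mostly above 0, while the regulators lie nearer 0.

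The promoters of these genes were searched for the ER stress response element, a motif known to be bound by NF-Y together with Atf6 or Xbp1. Its letters, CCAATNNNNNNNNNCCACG, were searched on both strands of windows from 250 bases before to 50 bases after each RefSeq gene start (GRCm38.p6), which were available for 186 of the 252 listed genes. The motif occurred in 39 of 32851 windows (0.119%). It was found in 7 of 18 ER chaperone and folding genes with a window (Hspa5, Hsp90b1, Pdia6, Dnajc3, Creld2, Calr and Canx), in 2 of 9 degradation genes (Derl3 and Syvn1) and in 0 of 12 translocon and signal peptidase genes. Among genes 4-fold over T cells in all 4 libraries it was found in 5 of 88 (5.68%), namely Creld2, Dnajc3, Hsp90b1, Pdia6 and Derl3, which the rule used. Among genes 4-fold over all other kept barcodes it was found in 4 of 131 (3.05%), the same genes without Pdia6. The matches of these 5 genes and of Hspa5 are printed 5′ to 3′ on the strand of the gene with 5 flanking bases, and capitals mark the motif in either orientation.
Hspa5 at chr2:34772020-34772048, plus strand: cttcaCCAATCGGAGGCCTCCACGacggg
Hsp90b1 at chr10:86705633-86705661, minus strand: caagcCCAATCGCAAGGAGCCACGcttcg
Hsp90b1 at chr10:86705528-86705556, minus strand: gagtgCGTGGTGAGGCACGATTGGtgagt
Derl3 at chr10:75893237-75893265, plus strand: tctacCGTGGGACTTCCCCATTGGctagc
Pdia6 at chr12:17266486-17266514, plus strand: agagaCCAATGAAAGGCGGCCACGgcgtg
Dnajc3 at chr14:118937822-118937850, plus strand: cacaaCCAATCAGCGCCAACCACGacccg
Creld2 at chr15:88819515-88819543, plus strand: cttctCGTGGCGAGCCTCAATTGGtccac

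These matches lay upstream of the start, at 47 to 65 bases in Hspa5, at 194 to 212 and 89 to 107 in Hsp90b1, at 138 to 156 in Derl3, at 80 to 98 in Pdia6, at 87 to 105 in Dnajc3 and at 108 to 126 in Creld2. Levels of the other carriers in plasma cells were 493, 644, 914 and 1137 CPM for Dnajc3, a cochaperone of Hspa5, 546, 765, 592 and 635 for Creld2 and 439, 722, 955 and 697 for the isomerase Pdia6. A shorter variant, ATTGG followed after 1 free base by CCACG, was found in 12 windows (0.0365%), among them those of Herpud1, Dnajb11 and Krtcap2. A core bound by Xbp1, TGACGTGG, was found in 222 windows (0.676%), among them those of the listed genes Txndc5, Txndc11, Pou2af1 and Sec24d, and those of the T cell marker Cd3e and the mast cell marker Mcpt1. A match describes letters in the window and is not shown to be a bound site here.

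Few plasma cells carried several genes of the cell cycle at once. Before thinning, 64, 29, 11 and 18 plasma cells had no UMI of 14 cycle genes, and the others had at least 1. After thinning to 1000 UMIs, at least 3 of these genes were seen in 4 of 301 (1.33%), 1 of 79 (1.27%), 1 of 25 (4.00%) and 0 of 33 plasma cells, the last with an upper exact limit of 10.6%. Thinning drew from all genes, and antibody genes, listed in kit 3 alone, took a median of 61.8% and 65.6% of UMIs there. Plasma cells of kit 3 were thus scored on fewer other UMIs than those of kit 2, which can lower their shares, and each group average mixes both depths. Of the 4 cells in ApcMin replicate 1, 3 had fewer than 100 Jchain UMIs. The cell of ApcMin replicate 2 held 30002 UMIs and 4378 genes, with 353 Jchain UMIs and 11.3% immunoglobulin UMIs, the lowest of its library in both. ApcMin libraries averaged 2.66% ± 1.89 (SD, n = 2) and VApcMinL libraries 0.633% ± 0.895 (SD, n = 2), and the difference of -2.03 points had p = 0.33 in the two-sided exact permutation test, the smallest it allows. Among members with at least 100 Jchain UMIs, 1 of 282 (0.355%) was cycling in ApcMin replicate 1. Mki67, a marker of dividing cells, was at 39.5, 16.7, 155 and 50.2 CPM in plasma cells. In ApcMin replicate 2 the cell with 30002 UMIs held 23 Mki67 UMIs, and no other cell of that library held more than 7. The Mki67 level of that library thus rested largely on 1 cell. Of the 13 cycle genes at 5 CPM or more, 8 lay below the other barcodes in all 4 libraries, where 42.8% of genes did.

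Plasma cells of 1 library differed among themselves in a small number of genes. Over 213 genes with a mean of at least 0.5 UMIs after thinning to 1000 UMIs, and among cells with at least 100 Jchain UMIs, the median ratio of variance to mean was 1.15, 1.15, 1.2 and 1.26, where counting error alone gives 1. The ratio exceeded 2 in all 4 libraries for 7 genes. These were Malat1, an abundant nuclear RNA, at 9.48, 9.78, 7.29 and 6.91, Slpi at 6.99, 13.9, 6.51 and 3.58, the surface protein Cd52 at 6.95, 4.54, 4.49 and 3.65, Cd74, Ly6d, Mzb1 and Hsp90b1. Slpi ran from 0 to 125, 189, 161 and 57 UMIs per cell with medians of 3, 13, 9 and 4. Ly6c2 was present in 45.2%, 87.3%, 84.0% and 57.6% of plasma cells and in 0.478%, 1.13%, 1.43% and 0% of T cells, with up to 38, 85, 154 and 27 UMIs in a plasma cell. Across cells, Ly6c2 and Cd74 went together in each library, at Spearman's rho of 0.40, 0.35, 0.34 and 0.58 over 282, 79, 25 and 33 cells, computed on shares of UMIs, where the cells share a library and differ in depth. For Ly6c2 and Slpi rho was -0.01, 0.04, 0.22 and -0.39.

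Stress genes moved with the library. The heat shock gene Hspa1a was present in 13.6%, 2.53%, 56.0% and 39.4% of plasma cells, and its level was 62.0, 4.18, 776 and 340 CPM in plasma cells and 72.7, 26, 643 and 774 in T cells. It was higher in kit 3 in both cell types. Fos, an immediate early gene that tissue dissociation is known to raise, was at 2837, 2817, 927 and 1354 CPM in plasma cells, higher in kit 2. The part of handling in these levels was not tested. Fos overlapped between the genotype groups. Hspa1a overlapped across kits but was lower in VApcMinL within each kit (kit differences of -2.87 and -1.18), and it was not called (log2 -1.74, edgeR adjusted p = 0.381).

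Expression in plasma cells was compared between the groups on counts summed per library, with the quasi-likelihood test of edgeR and the kit as a block. Of 3587 genes tested, 1 was called higher and 1 lower in VApcMinL at an adjusted p of 0.05 (0.0279% each), and 124 had an unadjusted p under 0.05. The values of the groups did not overlap in 701 genes (19.5%). With 2 libraries a group, a gene that missed the threshold is not shown to be alike in both.

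Xist (chrX:103460366-103483254, minus strand) was the gene called higher. It had 1, 401, 0 and 28 UMIs in the plasma cells, or 0.534, 839, 0 and 156 CPM, and the groups did not overlap. The fitted log2 difference was 10.15 (SE 0.55, edgeR adjusted p = 2.25e-07) and depends on the prior count, since ApcMin held 1 UMI. The plain ratio of CPM over the group sums was 1381, with an exact 95% counting interval from 247 to 54690. Ddx3y, from the Y chromosome, had 98, 0, 14 and 2 UMIs and was not called (log2 -4.04, edgeR adjusted p = 0.172). Both genes differ between female and male cells, and sex went with the group labels in kit 2 and in part in kit 3, as given above. Xist was not called without the kit block (edgeR adjusted p = 0.840).

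Hbb-bs (chr7:103826534-103828096, minus strand), a hemoglobin chain of red blood cells, was the gene called lower. It had 5087, 36, 0 and 1 UMIs, or 2717, 75.3, 0 and 5.57 CPM, so that the groups overlapped and ApcMin replicate 2 had none. The log2 difference was -4.99 (SE 0.61, edgeR adjusted p = 0.00265). It rested on ApcMin replicate 1, where the 1 barcode with 86.7% hemoglobin UMIs described above is a member. A median member held 0.202% hemoglobin UMIs in ApcMin replicate 1 and 0% in each other library. With at least 20 Jchain UMIs Hbb-bs was still called (log2 -3.87, edgeR adjusted p = 0.00114). Among members with at least 100 Jchain UMIs it was no longer called (log2 -3.87, edgeR adjusted p = 0.170), nor without the block (adjusted p = 1.00), nor with DESeq2 (log2 -1.59, adjusted p = 1.00). In barcodes of at most 100 UMIs the 5 red blood cell markers took 0.688%, 0.226%, 0.133% and 0.156% of UMIs, highest in the same library.

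The genes with the smallest p after these did not pass the test and are given as values. Above 0 were 2010109I03Rik (log2 2.78, edgeR adjusted p = 0.116), Kctd12 (1.54, adjusted p = 0.553), the lectin Lgals3 (1.11, adjusted p = 0.610) and Krt20, a keratin of enterocytes (1.57, adjusted p = 0.610). Kctd12 was at 54.5, 123, 16.3 and 123 CPM, so its groups did not overlap. Below 0 were Itln1, a lectin of Paneth and goblet cells (log2 -3.93, edgeR adjusted p = 0.172), H2-Aa (-1.60, adjusted p = 0.177) and Hmgb2, a chromatin protein of dividing cells (-1.27, adjusted p = 0.227). Itln1 was at 943, 33.5, 12.2 and 27.9 CPM and Hmgb2 at 209, 75.3, 441 and 212. For Itln1 the log2 difference was -0.45 among members with at least 100 Jchain UMIs (edgeR adjusted p = 1.00), while with at least 20 Jchain UMIs it was -4.03 and the gene was called (edgeR adjusted p = 0.0428). H2-Aa, the class II alpha chain, was at 206, 73.2, 69.4 and 16.7 CPM, lower in VApcMinL within each kit (kit differences of -1.43 and -1.78), while the groups overlapped. Its log2 difference was -0.51 among members with at least 100 Jchain UMIs and -0.53 with at least 20 (edgeR adjusted p = 1.00 in both), and -0.86 without the barcodes with genes of other cells (adjusted p = 1.00).

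No gene of the secretory, survival, homing or transcription factor lists was called, where 0.0558% of all genes were. The 22 ER chaperones and folding enzymes had a median log2 difference of 0.22, with 20 estimates above 0 and 13 genes higher in VApcMinL in both kits. Over all 3587 genes tested the median was -0.00, with 1780 above 0 and 878 higher in VApcMinL in both kits. Hspa5 had the smallest p among them (log2 0.66, SE 0.22, edgeR adjusted p = 1.00), with kit differences of 0.56 and 0.74, and its groups did not overlap. Degradation genes, here with Derl3 of the rule counted among the 10, had a median of 0.21, with 8 of 10 above 0, Herpud1 at 0.61 (edgeR adjusted p = 1.00). For the chaperones the median was 0.13 among members with at least 100 Jchain UMIs, and for degradation genes 0.12. The translocon and signal peptidase genes had a median of -0.02. All 7 cycle genes tested had estimates below 0, as did 1807 of the 3587 genes. Their median was -0.78, with Mki67 at -1.42 (edgeR adjusted p = 0.777) and Birc5 at -1.96 (adjusted p = 0.587). The Mki67 estimate includes the 1 cell of ApcMin replicate 2 with a high count, given above.

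**Figure D5:**
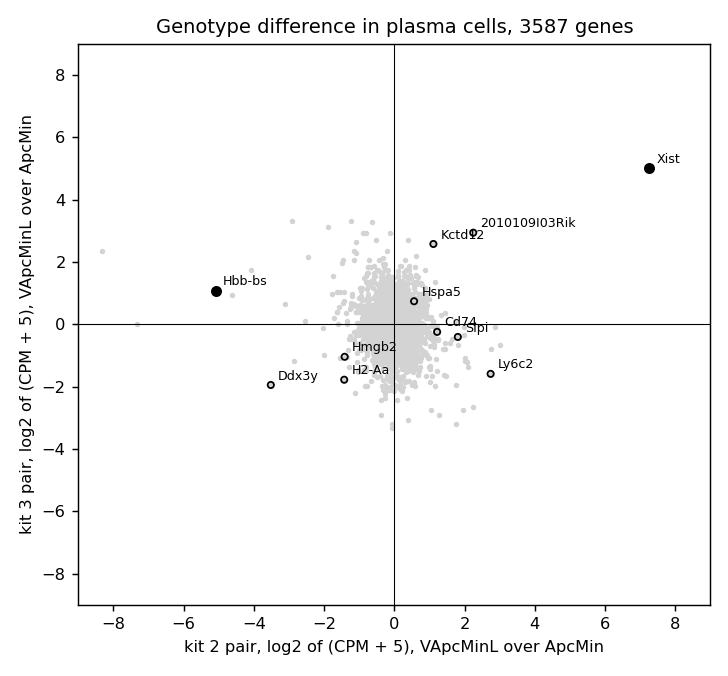
Differences between VApcMinL and ApcMin plasma cells within each kit. Each point is 1 of 3587 genes, the axes give the difference in log2 of (CPM + 5) in the kit 2 and the kit 3 pair, and black points mark the genes called by edgeR. Xist lies high on both axes, Hbb-bs is low on the kit 2 axis alone, and most other genes lie around 0.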

How the data were processed

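Droplet libraries of dissociated, unsorted adenomas were analysed, 2 ApcMin and 2 VApcMinL. The authors deposited raw counts, that is UMIs per gene and barcode for all barcodes, not normalized. The submitters' processing notes name Cell Ranger 2.1.1, Seurat 3.1.1 and the mm10 (GRCm38) genome, while in kit 3 the matrix files carry a newer software version in their header. Read alignment and UMI counting were theirs, and everything after the counts was computed here. The gene lists hold 27998 entries in kit 2 and 31053 in kit 3, and those of kit 2 hold no immunoglobulin genes. IgA, lambda and immunoglobulin shares, planned as tests over 4 libraries, are therefore values of the 2 kit 3 libraries. Antibody genes also enter the UMI floor in kit 3 alone. Levels use the 27514 genes whose identifiers all 4 tables share, with a prior of 5 CPM in ratios.

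The members and the gene lists were chosen with earlier results of these data known. Counts of plasma cells were summed per library, since cells are not replicates, and tested with edgeR 4.0.16 in R 4.3.3 (TMM scaling, expression filter at a minimum count of 10, Benjamini-Hochberg adjusted p at 0.05). The kit was a block, because the labels give replicate numbers the kit version. Deviations of same-numbered libraries from the group means correlated at 0.467 over 3587 genes, where with 2 groups of 2 both kits must give the same value. Shares were compared by two-sided exact permutation tests over libraries (Python 3.11.15, scipy 1.17.1). Doublets were not removed, and removal by Scrublet scores in scanpy 1.11.5 was an alternative, as were DESeq2 1.42.0, other scalings, floors and left-out libraries. The edgeR script was tested on simulated data. Genes were named by rule: per list up to 4 members with the highest CPM and those at 0, the 20 leading genes, called genes, the 5 smallest p in each direction and the most used V genes. Any further gene was picked with its values known. T cells were barcodes with at least 2 UMIs of Cd3d, Cd3e and Cd3g in sum that passed the epithelial limit. V genes were assigned at 3 UMIs. Gene coordinates are from GENCODE vM21.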

Additional observations from a re-analysis of the deposited data

Results flagged for a closer look

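Ly6c2 moved in opposite directions in the 2 kits. In the kit 2 pair its log2 difference of VApcMinL minus ApcMin plasma cells was 2.74, from 316 to 2137 CPM, and in the kit 3 pair it was -1.59, from 1853 to 613 CPM. Each direction is that of 1 library against 1, and the difference between the kits was not tested. The gene was 1 of 158 named genes looked at, and 9 of the 3587 tested genes met the same condition. Its share of positive cells moved alike, as given above.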

How the results depend on the processing

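The share of plasma cells rested on ApcMin replicate 1. Leaving out each library in turn gave differences between -9.06 and 0.54 percentage points, positive only without that library. The other settings kept it below 0. The cycling share stayed below 0, from -3.37 to -0.70 points over left-out libraries. No library could be left out for the shares read in kit 3 alone. The IgA difference was 4.0 points when the class with most UMIs was taken, or with floors on the genes both kits list, and the lambda difference was 0 at a mitochondrial limit of 10%, since the lambda cell failed it.

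Of the 2 genes called, the count was 1 (Xist) at a mitochondrial limit of 10%, at an epithelial limit of 0.1%, without barcodes that hold genes of other cells, with DESeq2, and in both alternatives chosen after seeing the data (at least 100 Jchain UMIs, or floors on shared genes). Without barcodes that hold genes of other cells, 2168 genes were tested and Hbb-bs was not among them. At the epithelial limit of 0.1%, 2258 genes were tested, with Hbb-bs among them (edgeR adjusted p = 0.120). The count was 0 with no replicate block (16 genes at an unadjusted p under 0.05, smallest edgeR adjusted p = 0.840). With 100 Jchain UMIs and no replicate block it was 0 as well (10 genes under 0.05). Thinning to 1000 UMIs left 587 genes to test, of which 0 were called (17 under 0.05). Xist and Hbb-bs were not among those 587, so thinning could not show whether their calls hold. Without the filter on low counts, 69 of 14487 genes were called, 58 of them lower. Leaving out a library, which needs the fit without the block, gave 0 to 63 calls, the latter without ApcMin replicate 2, where the lone remaining ApcMin library is assumed to vary as VApcMinL does. With Jchain and any antibody genes left out of the summed counts of the same cells, 2 genes were called, Xist and Igfbp7. The genes that both kits list hold no antibody constant region.

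The plasma cells of kit 3 number 25 and 33, so shares there carry wide counting intervals. Sex, kit, Lef1 that went against the labels, and 19 members with little Jchain limit what the group comparison can show.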

Other observations

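Iglv1, a lambda V gene, was present in plasma cells called kappa. Its median was 30 UMIs in ApcMin replicate 2 and 27 in VApcMinL replicate 2, and it exceeded Iglc1 in 13 of 25 and 20 of 32 kappa cells. In T cells it was present in 0% and 0.446%. The highest value in a kappa cell was 224 and 142 UMIs.

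Genes of niche ligands and IgA transport were lower in sum in plasma cells than in epithelial barcodes. The 7 genes took 0.0111%, 0.0128%, 0.00898% and 0.00557% of UMIs in plasma cells. In epithelial barcodes they took 0.0717%, 0.112%, 0.141% and 0.0581%, and in T cells from 0.00666% to 0.0110%. The part of free RNA in the plasma cell values was not tested. Pigr, the IgA transport receptor of the epithelium, was at 80.1, 111, 61.2 and 33.4 CPM in plasma cells, and Ccl25 at 23.5, 12.5, 28.6 and 22.3. Ccl28, Cxcl12 and Il6 had at most 2.67 CPM. Of the effector genes reported for some plasma cells, Nos2 was at 0 in all 4 libraries, Il10 was at 1.60, 6.27, 4.08 and 5.57 CPM, Ebi3 at 4.81, 8.37, 8.17 and 11.1 and Tgfb1 at 54.5, 60.7, 40.8 and 55.7.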
